A study of Homo sapiens with 4 samples.

Results

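Long intergenic non-coding RNAs (lincRNAs) were compared between cells of the human myeloma line AMO1 that overexpressed PHF19 and AMO1 cells carrying an empty vector (EV). Of the 1232 genes in the deposited table, 72 carried the gene type lincRNA, and these 72 are described here; 1019 of the other genes were protein-coding. All 4 libraries came from cells transduced with a lentivirus carrying a PCDH vector, so the EV group shares the transduction, and each group (EV, PHF19_OE) held 2 libraries. The labels do not say whether either group was a pool or a clone, or whether its replicates were separate cultures. The table holds only genes that reached a p-value under 0.05 in the authors' own test of PHF19_OE against EV. The 72 were thus preselected on this contrast, and lincRNAs outside the table are not analysed here.

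LincRNAs are transcripts of genes that lie apart from protein-coding genes and carry no long reading frame; many are spliced and polyadenylated. Some act as scaffolds for proteins, some are precursors of microRNAs, and for many only the act of transcription or no role at all is known. PHF19, also called PCL3, is a Polycomb-like subunit that helps bring Polycomb repressive complex PRC2 to chromatin, where PRC2 methylates lysine 27 of histone H3. The comparison asks which of these transcripts differed when PHF19 was raised in myeloma cells.

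The libraries held between 23835805 and 35258920 counted reads. PHF19 had normalized counts of 1842 and 4506 in the EV libraries and of 9670 and 8777 in the overexpressing ones. It was higher in both overexpressing libraries, and the authors' deposited table gives it a log2 fold change of 1.54 (adjusted p = 0.0897). The EV libraries differed from each other, and EV replicate 2 was the nearer of them to the overexpressing cells in PHF19 itself. Of the plasma cell and myeloma markers looked for (10 genes), CD38 was in the table and it fell; the other 9 are not analysed here, so the line's identity could not be checked further.

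Overexpression was accompanied by more lower than higher lincRNAs. By the sign of the authors' log2 fold change, 46 of the 72 (63.9%) were lower and 26 (36.1%) were higher in PHF19_OE. Among all listed genes 36.4% were higher, and among listed coding genes 35.1%, so the split of lincRNAs lay close to that of the whole table. By the authors' deposited values 12 lincRNAs (16.7%) passed an adjusted p of 0.05, of which 4 rose and 8 fell. Of the 16881 genes over which the authors adjusted, 1.74% were called, 0.663% as higher and 1.07% as lower. The nearer background is the table itself, in which 23.8% of the listed genes and 24.7% of the listed coding genes were called; the share among lincRNAs was below both, and the difference was not tested.

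The lincRNAs were weakly expressed. Their median level was 0.525 FPKM (fragments scaled to transcript length and library total, which allows levels of different genes to be compared), against 1.55 FPKM for listed coding genes. The median normalized count, a read count divided by the authors' size factor for its library, was 19 for lincRNAs and 224 for coding genes. Fewer than 100 reads over all 4 libraries lay behind 37 of the 72, compared with 119 of the 1019 coding genes. The most abundant was LINC01480, with a mean of 57.5 FPKM over both groups, and the least abundant of the 72 had 0.0275 FPKM. Together the 72 took 0.0775% of the reads of EV replicate 1, 0.0314% of EV replicate 2, and 0.0325% and 0.0282% of the PHF19_OE libraries. EV replicate 1 therefore stood apart in the summed lincRNA reads, while the sum of EV replicate 2 lay at the level of the overexpressing libraries. Like sums do not mean like levels of each transcript. MIAT, described below, gave 2422 of 7743 and 3006 of 7936 summed reads in the PHF19_OE libraries, but 749 of 9252 in EV replicate 2.

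**Figure D1:**
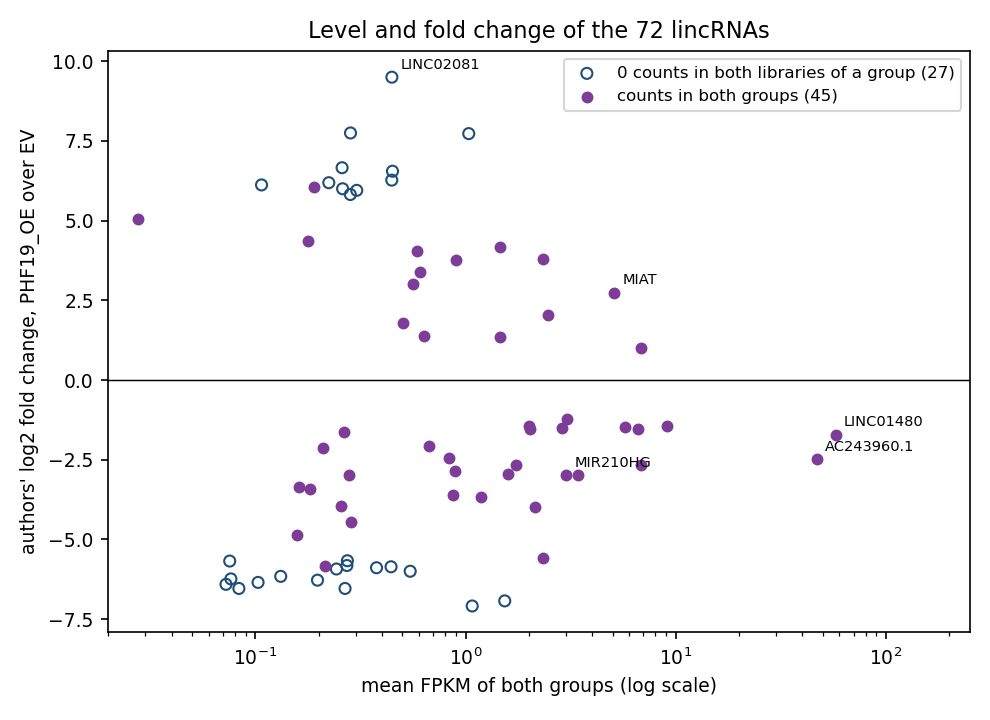
Mean FPKM over both groups (log axis) against the authors' log2 fold change of PHF19_OE over EV for the 72 lincRNAs, with open circles for the 27 that had 0 counts in both libraries of a group, whose fitted fold change depends on the authors' model and is no measured ratio. LINC01480 and AC243960.1 stand at the highest levels with moderate falls, MIAT is the most abundant of the lincRNAs that rose past the threshold, and the 5 largest fitted changes are open circles.

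MIAT, the myocardial infarction associated transcript (also Gomafu), is a long nuclear RNA. Of the 4 lincRNAs that rose past the threshold it was the most strongly expressed in FPKM. It lies at chr22:26646428-26676475 of hg38, on the plus strand. Its normalized count was 166 in EV replicate 1 and 732 in EV replicate 2, and 2910 and 3076 in the overexpressing libraries. Both overexpressing libraries were above both EV libraries, and they lay close together while the EV libraries did not. The EV mean was 449 ± 400 (SD, n = 2) and the overexpressing mean 2993 ± 117 (SD, n = 2), a 6.66-fold difference (log2 fold change 2.74, adjusted p = 0.00166, the authors' table). The size depended on the EV library used: the overexpressing mean was 18.0-fold above EV replicate 1 alone and 4.09-fold above EV replicate 2 alone. By MIAT, EV replicate 2 lay between EV replicate 1 and the overexpressing libraries, as it did by PHF19. The same placement was seen in 65.9% of all listed genes. PHF19 itself ordered the overexpressing libraries the other way, at 9670 and 8777. Of the annotated exon bases of MIAT, 18.2% overlap another gene on the opposite strand and 8.17% another gene on its own strand; strand use in the counting is not given in the sources used here, so reads there may belong to either gene.

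MIAT is known for repeats of the branch point sequence UACUAAC, through which the splicing factor SF1 binds it. A GENCODE transcript of MIAT of 10143 bases held 7 copies of TACTAAC on the transcript strand, and 4 of them lie within the 213 bases from position 5691 to 5903 of that transcript, shown because this element sets MIAT apart among lincRNAs; capitals mark the motif.
MIAT transcript: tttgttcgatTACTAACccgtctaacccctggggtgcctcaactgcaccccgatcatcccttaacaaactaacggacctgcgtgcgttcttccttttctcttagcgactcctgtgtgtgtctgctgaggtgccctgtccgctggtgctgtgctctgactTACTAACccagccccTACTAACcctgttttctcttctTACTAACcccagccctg
Of 14379 annotated lincRNA transcripts of any length, 2.55% held the motif at all, and the 4 transcripts with as many copies as this one were all MIAT transcripts. The match is a description of the annotated RNA and says nothing of binding in these cells.

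The other 3 lincRNAs that rose past the threshold had 0 reads in both EV libraries. LINC02081 (chr17:78605233-78632155, minus strand), a transcript of no assigned role, had normalized counts of 132 and 102 in the overexpressing libraries. Taking 3 counts over both EV libraries as the floor, it was at least 89.3-fold higher, with an adjusted p of 2.97e-06 in the authors' deposited table, the lowest of the 72. AC007342.5 (chr16:53386944-53389085, plus strand) had 28.8 and 40.9, at least 26.6-fold above the floor (adjusted p = 0.00871, the authors' table). AC011995.1 (chr2:2870558-2871231, minus strand) had 43.3 and 25.6 and was at least 26.2-fold above it (adjusted p = 0.00997, the authors' table). All 3 were thus detected in every overexpressing library and in no EV library, at low levels of at most 2.61 FPKM in any library.

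MicroRNA host genes were found in both directions. MIR210HG (chr11:565660-568457, minus strand) is the host transcript of miR-210, a microRNA induced in hypoxia by HIF1. Its normalized counts were 509 and 187 in the EV libraries and 37.3 and 51.2 in the overexpressing ones, with no overlap. It fell 7.87-fold, from 348 ± 228 to 44.2 ± 9.84 (SD, n = 2), and the authors' deposited table gives a log2 fold change of -2.98 (adjusted p = 0.000847). Against EV replicate 2 alone the difference was 4.22-fold and against EV replicate 1 alone 11.5-fold. MIR646HG (chr20:60087840-60527458, plus strand), host of miR-646 and miR-4533, had raw counts of 93 and 50 in EV and of 0 and 2 in PHF19_OE. It fell 56.6-fold by the ratio of counts (exact 95% interval 15.4 to 472, counting error only), with an adjusted p of 0.00646 in the authors' deposited table. MIR34AHG (chr1:9148011-9198906, minus strand), host of the p53-induced miR-34a, stood at 47.5 and 129 in EV and at 270 and 188 in PHF19_OE. The groups did not overlap, but its 2.60-fold higher mean missed the threshold (adjusted p = 0.606, the authors' table).

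The microRNAs hosted by these transcripts are shown because the host is read here in their place: the mRNA libraries do not measure mature microRNAs. The mature sequences are from RefSeq (GRCh38.p14), with the seed, bases 2 to 8, in capitals.
hsa-miR-210-3p: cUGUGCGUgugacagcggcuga
hsa-miR-210-5p: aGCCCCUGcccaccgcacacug
hsa-miR-646: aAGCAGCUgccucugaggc
hsa-miR-4533: uGGAAGGAgguugccggacgcu
hsa-miR-34a-5p: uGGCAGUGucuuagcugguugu
hsa-miR-34a-3p: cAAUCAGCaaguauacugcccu
No seed is shared between the hosts that fell and MIR34AHG.

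The most abundant lincRNAs were neighbours on chromosome 19 and fell together. LINC01480 (chr19:41535183-41536904) and AC243960.1 (chr19:41545192-41555462), start 10009 bases apart on the plus strand. LINC01480 had normalized counts of 5888 and 2715 in EV and of 1573 and 1038 in PHF19_OE, and fell 3.30-fold (log2 fold change -1.72, adjusted p = 0.0349, the authors' table). AC243960.1 had 5023 and 1438 in EV and 658 and 503 in PHF19_OE, and fell 5.56-fold (log2 fold change -2.48, adjusted p = 0.00289, the authors' table). Both were highest in EV replicate 1. Against EV replicate 2 alone LINC01480 was 2.08-fold and AC243960.1 was 2.48-fold lower in the overexpressing cells.

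The remaining lincRNAs that fell are known by clone or locus names and have no role assigned here. AL805961.1 (chr1:3976133-4012699, plus strand) had normalized counts of 289 and 125 in EV and of 13.2 and 13.3 in PHF19_OE, a 15.6-fold fall (adjusted p = 1.74e-05, the authors' table). HCG11 (chr6:26521709-26527404, plus strand) had 826 and 554 in EV and 244 and 242 in PHF19_OE, a 2.84-fold fall that only just passed (adjusted p = 0.0498, the authors' table). AC002351.1 (chr12:110951683-110957812, minus strand) had raw counts of 128 and 53 in EV and of 0 and 3 in PHF19_OE. It fell 47.8-fold by the ratio of counts (exact 95% interval 16.1 to 234; adjusted p = 0.00244, the authors' table). AC084816.1 (chr12:22699859-23174125, plus strand) went from 69 and 40 to 0 and 3, a 28.8-fold fall (9.59 to 142; adjusted p = 0.0455, the authors' table). In each of these the EV libraries lay above the overexpressing ones without overlap, and EV replicate 1 was the highest. Just outside the threshold, at an adjusted p of 0.0807 each in that table, LINC02036 stood at 0 and 17.6 in EV against 106 and 136, and AC023824.1 at 44.4 and 47.9 in EV against 0 and 4.09.

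**Figure D2:**
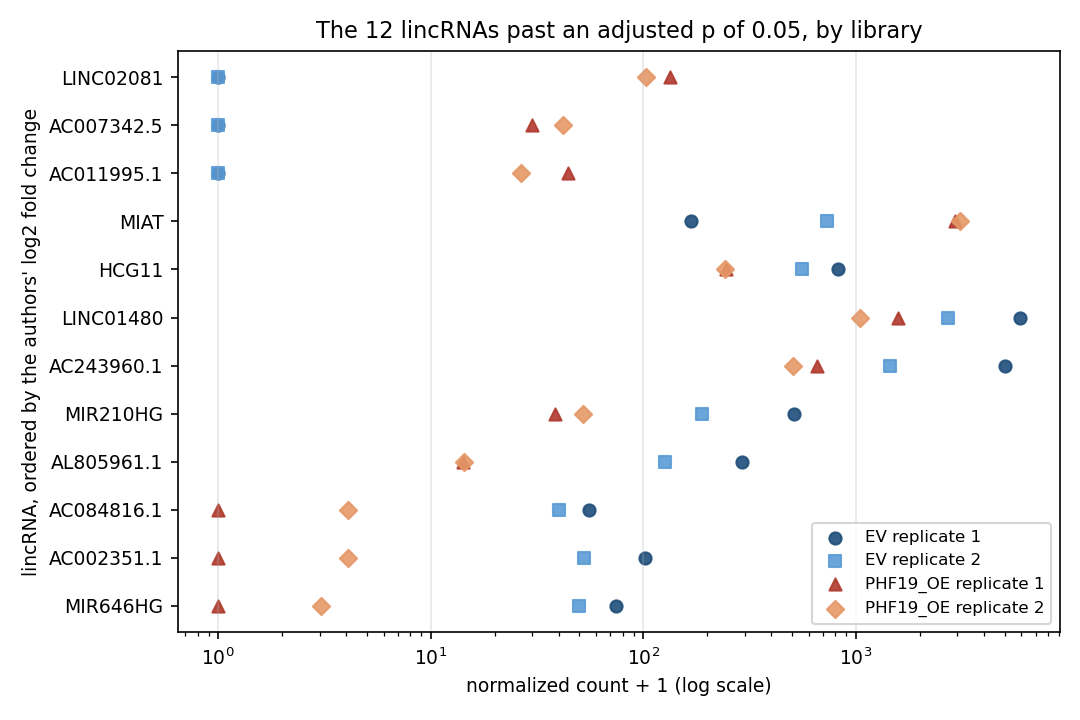
Normalized count plus 1 (log axis) of the 12 lincRNAs past an adjusted p of 0.05 in the authors' table, with 1 marker per library and no error bars because every value is shown. The 4 at the top rose and 3 of them stand at 0 in both EV libraries, whose markers coincide; in MIAT and the 8 that fell EV replicate 2 always lies between EV replicate 1 and the overexpressing libraries.

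Several abundant lincRNAs differed in the same direction without passing. LINC00426 had normalized counts of 2159 and 821 in EV and of 597 and 512 in PHF19_OE (adjusted p = 0.236, the authors' table). LINC00494 had 1744 and 596 in EV and 470 and 342 in PHF19_OE (adjusted p = 0.235). For both, the overexpressing mean was within 1.48-fold of EV replicate 2. BISPR, a transcript next to the interferon-induced gene BST2, likewise had 533 and 204 in EV against 179 and 136 (adjusted p = 0.641, the authors' table). Of its annotated exon bases, 19.9% overlap another gene on its own strand and 8.44% on the opposite strand, so reads there may belong to either gene. In all 3 the groups lay apart narrowly, and the larger distance was to EV replicate 1. In the other direction LINC00997 had 461 and 224 in EV and 711 and 658 in PHF19_OE, a 2.00-fold higher mean (adjusted p = 0.678). Of a list of 58 long non-coding RNAs looked for by name, MIAT, MIR210HG, MIR34AHG, LINC00494 and LINC01480 were the 5 in the table as lincRNAs.

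Many lincRNAs were read in only 1 of the groups. Both EV libraries had 0 counts for 11 of the 72 and both overexpressing libraries for 16, together 37.5%. Among listed coding genes the share was 9.42%, and among all listed genes 77 were at 0 in EV and 93 in PHF19_OE. Since lincRNA counts were lower, a 0 was reached from fewer reads, and depth was not matched between the classes. A count of 0 limits a level and does not show that the transcript was absent.

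Of the 11 at 0 in EV, 3 passed the threshold and are given above. AC007342.4, which starts 13451 bases before AC007342.5 on the same strand and does not share exon bases with it, had 12 and 18 reads in the overexpressing libraries, at least 12.5-fold above the floor (adjusted p = 0.201, the authors' table). AC239803.3 had 15 and 12 reads (at least 11.5-fold), and AC025171.5 had 12 and 9 (at least 9-fold). AL132656.2 had 6 and 15, AC099568.2 had 13 and 5, and AC103564.1 had 5 and 12. In all 6 of these both overexpressing libraries held at least 5 reads. In the other 2 nearly all reads came from PHF19_OE replicate 1, with 20 against 1 for AC110285.6 and 15 against 2 for AC022173.1.

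None of the 16 at 0 in PHF19_OE passed the threshold in the authors' table. LINCMD1, a transcript known from muscle differentiation, had 64 and 5 reads in EV, at least 16.8-fold above the floor of 3 counts over the overexpressing group (adjusted p = 0.0885). CU104787.1 had 48 and 12 (at least 15.0-fold, adjusted p = 0.0826). In both, most reads were in EV replicate 1. LINC00559 with 48 reads and AC098936.1 with 42 were read in EV replicate 1 and in none of the other 3 libraries, so their groups overlap at 0. LINC01465 with 11 and 21 reads and AL138812.1 with 9 and 17 were the 2 of the 16 with more reads in EV replicate 2. The lower bounds of the 16 lay between 6.25-fold and 16.8-fold.

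**Figure D3:**
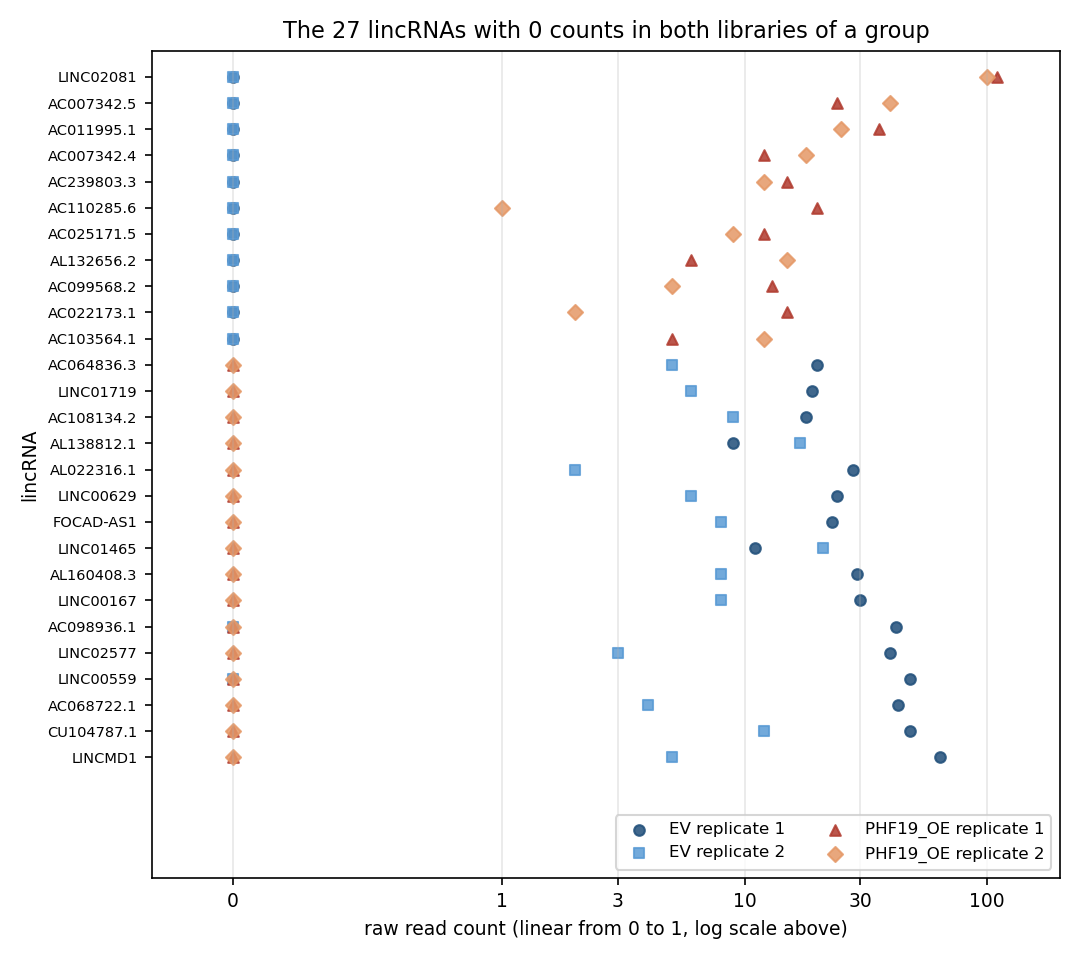
Raw read counts per library of the 27 lincRNAs with 0 counts in both libraries of a group (axis linear from 0 to 1 and logarithmic above; markers at 0 coincide). The upper 11 are at 0 in both EV libraries and the lower 16 at 0 in both PHF19_OE libraries; in 14 of those 16 EV replicate 1 has more reads than EV replicate 2, and LINC00559 and AC098936.1 were read in EV replicate 1 alone.

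The EV libraries differed widely in these transcripts. After 1 was added to the normalized counts, a step that shrinks ratios of weakly expressed genes, EV replicate 1 was over 2-fold above EV replicate 2 in 37 of the 72 (51.4%, against 40.2% of coding genes). EV replicate 2 was over 2-fold above EV replicate 1 in 11, and 24 lay within 2-fold. The overexpressing libraries lay within 2-fold of each other in 57. EV replicate 2 stood between EV replicate 1 and both overexpressing libraries in 47 of the 72 (65.3%), and EV replicate 1 stood between in 7; among coding genes EV replicate 2 was between in 66.4%.

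This spread bears on the size of many of the differences, though not on those of the 11 lincRNAs at 0 in both EV libraries. With higher and lower lincRNAs pooled, the median log2 difference of the overexpressing mean was -2.79 from EV replicate 1 and -0.52 from EV replicate 2. Over all listed genes these medians were -1.57 and -0.42. The overexpressing mean was over 2-fold from each EV library taken alone in 54 of the 72 (75%, against 54.6% of coding genes), from EV replicate 1 alone in 17 and from EV replicate 2 alone in 1. The median of the authors' log2 fold changes was -2.11 for lincRNAs and -1.33 for all listed genes. With transcripts at 0 in a group set to their bound against the floor, the lincRNAs with a higher mean had a median of 3.33 and those with a lower mean of -2.96, compared with 2.13 and -2.09 over all listed genes. Transcripts with few reads need a larger ratio to reach a p-value under 0.05, and the table holds only transcripts past that value.

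**Figure D4:**
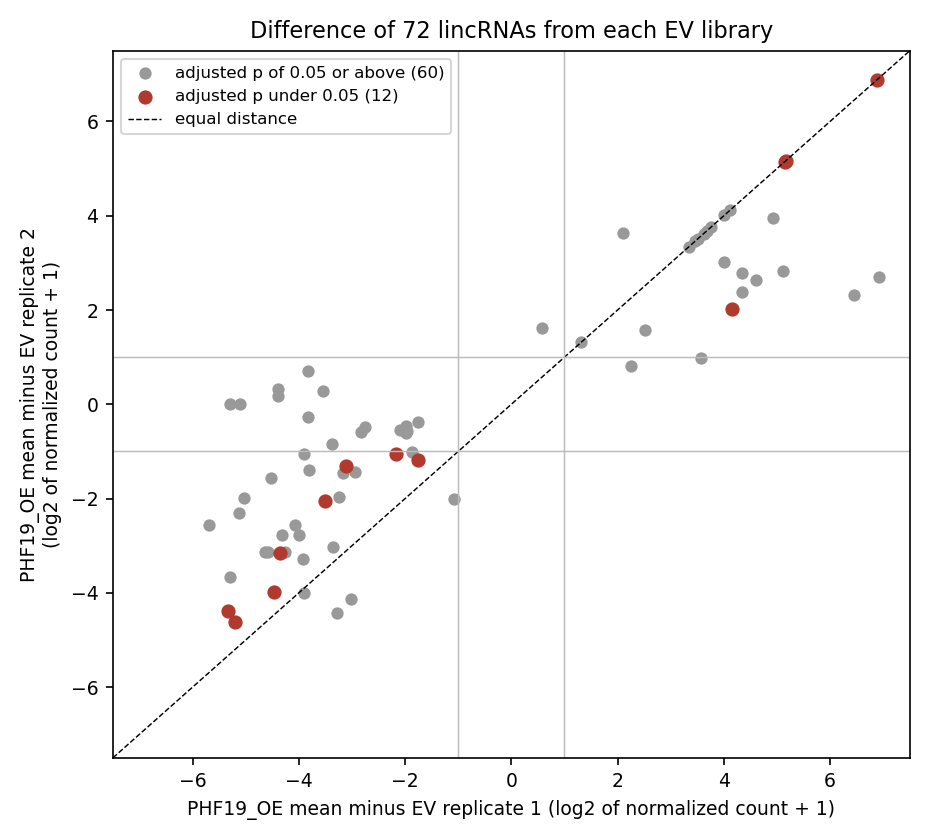
Log2 difference of the PHF19_OE mean from EV replicate 1 (horizontal) and from EV replicate 2 (vertical) for the 72 lincRNAs, in log2 of the normalized count plus 1; grey lines mark 2-fold and the dashed line equal distance. Most of the lower lincRNAs lie above the dashed line, nearer to EV replicate 2, and the 12 called ones (red) lie beyond 2-fold from both EV libraries.

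In 65 of the 72 (90.3%) no EV library lay within the range of the overexpressing ones or the reverse, a pattern favoured by the selection of the table; over all listed genes the share was 90.5%. The 7 that overlapped were AC245297.3, AC007405.3, LINC01634, LINC00623, U73166.1, LINC00559 and AC098936.1. All 7 had a lower mean in PHF19_OE and were high in EV replicate 1 alone. LINC01634, with the widest EV pair of those read in EV replicate 2 after 1 was added, stood at 207 and 6.84 in EV and at 15.6 and 2.05 in PHF19_OE. Without EV replicate 1 the sign of the difference turned in AC007405.3, LINC01634, LINC00623 and U73166.1, while LINC00559 and AC098936.1 came level at 0, which left 40 lower and 30 higher lincRNAs. None of the 12 called lincRNAs changed sign.

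A listed protein-coding gene started within 100 kb of 10 of the lincRNAs, and in 9 of these pairs both members were lower in PHF19_OE. The start was taken here as the lower coordinate of a gene on either strand, and distances are between these unless start sites are named. For listed coding genes with a listed coding neighbour in the same window, 121 of 147 pairs (82.3%) went the same way. Both members were lower in 89 of these 147 coding pairs. The exception among the 10 lincRNA pairs was MIR210HG, which fell while LRRC56, 28133 bases away, was higher. LRRC56 stood at 31.7 and 64.5 in EV and at 183 and 130 in PHF19_OE (adjusted p = 0.325, the authors' table). Without EV replicate 1, 7 of the 10 pairs were counted as going the same way. That count takes AC098936.1, beside CDK18, as lower although it was level between the groups in that setting. Genes outside the table are not seen, so that a listed neighbour is the nearest coding gene of all, by the gap between gene bodies, for only 6 of the 72. Of these 6, LINC00504 lies 114505 bases from CPEB2 and is not among the pairs. Coding genes outside the table lie nearer to MIR210HG (RASSF7), LINC01011 (NQO2), AC108134.2 (ZNF213), AC098936.1 (LEMD1) and AL445483.1 (DDX59) than their listed neighbours.

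CEACAM21, a cell adhesion gene of the carcinoembryonic antigen family, was the listed neighbour of both abundant chromosome 19 lincRNAs. Its normalized counts of 2323 and 915 in EV and 268 and 193 in PHF19_OE gave a log2 fold change of -2.81 (adjusted p = 4.42e-05, the authors' table). All 3 genes are on the plus strand; AC243960.1 starts 4326 bases before CEACAM21, its body runs into it, and they share 33 exon bases. The 3 transcripts therefore fell together within a short stretch, and reads in the overlap cannot be assigned to either gene. LINC01011 and SERPINB6, a serine protease inhibitor gene on the minus strand, have lower coordinates 39808 bases apart and transcription start sites 15802 bases apart. SERPINB6 had 1357 and 641 in EV and 51.7 and 24.6 in PHF19_OE and fell (adjusted p = 9.94e-13, the authors' table). LINC01011 itself stood at 56.2 and 22.5 against 6.01 and 4.09 and did not pass (adjusted p = 0.379, the authors' table). Its body overlaps NQO2, a coding gene outside the table on the same strand, and their start sites lie 20 bases apart. Of its annotated exon bases, 10.4% overlap another gene on its own strand and 10.3% on the opposite strand, so reads there may belong to either gene.

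IL32, a cytokine gene, fell from 153 and 72.4 to 10.8 and 0 (adjusted p = 0.0125), and AC108134.2, 91439 bases away, had 18 and 9 reads in EV and 0 in both overexpressing libraries. ERICH2 stood at 309 and 8.80 in EV and at 12 and 2.05 in PHF19_OE (adjusted p = 0.0372), and AC007405.3, which starts 12673 bases before it on the same strand, at 596 and 41.1 against 73.3 and 27.6. In this pair both members were high in EV replicate 1 alone. RefSeq places the start of ERICH2 431 bases from the listed start of AC007405.3, so both may belong to 1 gene. AC064836.3 and BMPR2, a receptor for bone morphogenetic proteins, have transcription start sites 1332 bases apart on opposite strands. The lincRNA had 20 and 5 reads in EV and 0 in PHF19_OE, and BMPR2 stood at 775 and 74.3 against 120 and 120. The pairs AL160408.3 with IRF2BP2, AC098936.1 with CDK18 and AL445483.1 with CAMSAP2 were lower in both members, and no member of the 3 passed (adjusted p from 0.127 to 0.670, the authors' table).

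**Figure D5:**
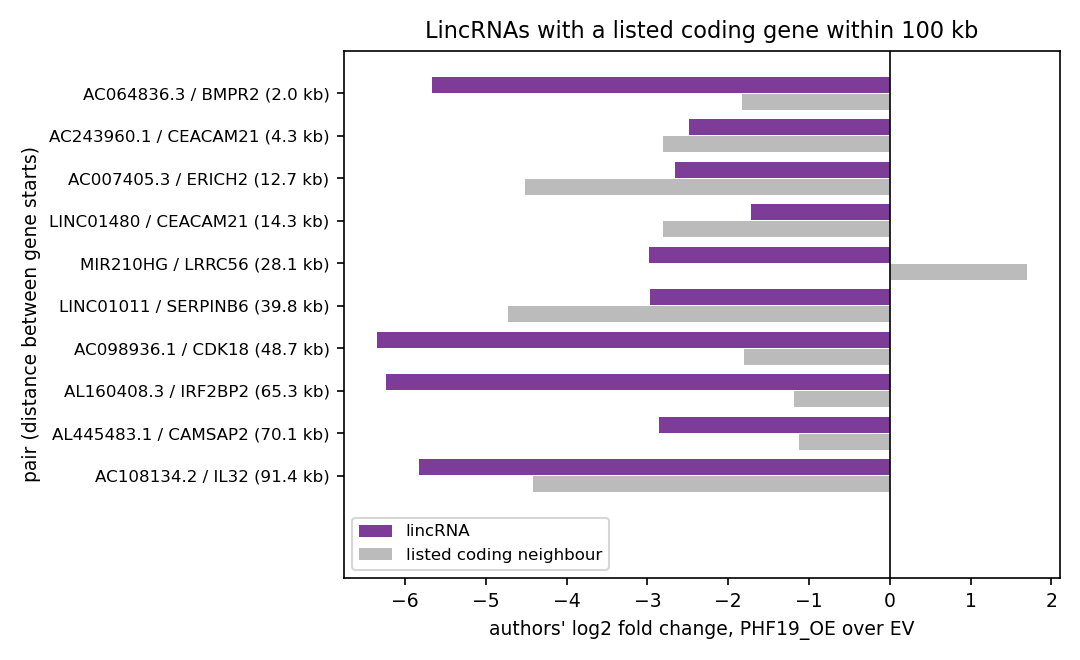
The authors' log2 fold change of PHF19_OE over EV for the 10 lincRNAs (purple) with a listed coding gene (grey) starting within 100 kb. Pairs are ordered by distance between gene starts, taken as the lower coordinate of each gene. Bars start at 0 and carry no error because the table gives none. All bars point to lower values in PHF19_OE except LRRC56 beside MIR210HG; the fold changes of AC064836.3, AC098936.1, AL160408.3 and AC108134.2, at 0 counts in PHF19_OE, are fitted values and not measured ratios.

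The 72 lincRNAs were spread over 21 chromosomes, 41 of them on the plus strand, and all had the coordinates and gene type of GENCODE release 29. The body of 13 overlapped a coding gene on either strand, and 13 lay over 100 kb from the nearest coding gene. For 12 a coding gene started within 5 kb on the opposite strand, and BMPR2 was the only one of those coding genes in the table. Exon bases were shared with another gene by 15 of the 72, on the opposite strand for 14 and on the same strand for 6, and reads of these are uncertain for the reason given for MIAT. FAM66B belongs to a family of near-identical copies, between which the authors' counting could split reads.

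RefSeq promoter windows (GRCh38.p14, 250 bases before to 50 after the start) matched 29 of the 72 by symbol or gene number, and 25 of these lay within 1 kb of the listed start. The CG dinucleotide is of interest because Polycomb proteins are found mostly at CG-rich promoters. The 17 windows of lower lincRNAs held a median of 10.0 CG (1 to 44), and the 8 of higher ones 4.50 (2 to 24). Over all 35116 windows the median was 14.0, with quartiles of 4 and 28, so both medians lay between these quartiles while single windows of either group lay outside them. Printed are the windows of MIR210HG, which fell, and of MIAT, which rose. They hold 44 and 3 CG, and 44 is the highest count among the 17 lower windows. The windows of AC002351.1 and HCG11, which also fell past the threshold, hold 5 and 10 CG. Capitals mark each CG in the windows printed, 5′ to 3′ on the strand of the gene.
MIR210HG, chr11:568408-568707, minus strand: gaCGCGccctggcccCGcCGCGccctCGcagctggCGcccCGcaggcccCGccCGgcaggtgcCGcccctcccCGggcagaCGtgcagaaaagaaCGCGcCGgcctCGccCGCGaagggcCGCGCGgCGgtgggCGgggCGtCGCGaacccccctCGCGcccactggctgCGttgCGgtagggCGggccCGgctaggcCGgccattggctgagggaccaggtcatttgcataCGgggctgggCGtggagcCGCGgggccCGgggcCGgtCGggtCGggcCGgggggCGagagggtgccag
MIAT, chr22:26646179-26646478, plus strand: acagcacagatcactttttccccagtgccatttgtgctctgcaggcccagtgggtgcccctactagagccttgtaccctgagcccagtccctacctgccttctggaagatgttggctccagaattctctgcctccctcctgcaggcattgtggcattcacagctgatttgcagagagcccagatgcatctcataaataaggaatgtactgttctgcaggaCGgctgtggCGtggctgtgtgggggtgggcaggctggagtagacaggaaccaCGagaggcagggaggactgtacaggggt
The MIR210HG window has as many CG as, or more than, 96.5% of all windows, and the MIAT window 24.5%. Motifs were searched on both strands. The MIR210HG window held 4 matches of GGGCGG, 1 of CCAAT and 1 of the octamer ATGCAAAT, none of which overlapped, and no TATAAA. The octamer is read as ATTTGCAT on the strand shown, starting at base 224. The MIAT window held none of these 4 motifs. A further motif searched, ACGTG or GCGTG, had 2 matches in the MIR210HG window and 1 in the MIAT window. It was found in 48.4% of all windows and in 12 of the 25 lincRNA windows. Of all windows 45% hold GGGCGG, 34.6% CCAAT, 11.5% TATAAA and 1.77% ATGCAAAT. Among the 25 lincRNA windows 10 held GGGCGG, 8 CCAAT, 2 TATAAA and 2 ATGCAAAT.

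Markers of other cell types moved with the groups in part. Of 6 T and NK cell markers, CD3E and TRAC were listed, with a summed normalized count of 85.5 and 40.1 in EV and 2.40 and 5.12 in PHF19_OE. Among 6 genes of myeloid and erythroid cells the table held ITGAM and HBB (summed 153 and 40.1 in EV, 233 and 180 in PHF19_OE), which moved in opposite directions. ITGAM fell from 94.3 and 15.6 in EV to 0 in both overexpressing libraries. HBB rose from 58.6 and 24.4 in EV to 233 and 180. Of 6 B cell markers, CD79A fell and CD79B rose (summed 498 and 282 in EV, 1126 and 1296 in PHF19_OE). Of 6 fibroblast, endothelial and epithelial markers, CDH1 was listed and fell, at 99.0 in EV replicate 1 and 9.78 in EV replicate 2, against 1.20 and 0. EV replicate 1 was the highest library in the T and NK cell genes, ITGAM, CD79A and CDH1, as it was in most of the lower lincRNAs. HBB and CD79B were highest in an overexpressing library. The part of these markers in the lincRNA differences was not tested, and in bulk RNA fewer expressing cells and less RNA per cell cannot be told apart.

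The calls above are those of the authors' deposited table, with 2 libraries per group. Refitted to the counts of the 1232 genes and adjusted over 16881, edgeR's quasi-likelihood test called 0 of the 72 and 0% of all 1232 listed genes; 35 of the 72 had an unadjusted p under 0.05. DESeq2 on the same counts called 10.9% of the listed genes and 4 of the 72, LINC02081, AL805961.1, MIR210HG and AC002351.1, with 38 at an unadjusted p under 0.05. Both refits see only genes that the authors had selected. Without EV replicate 2 edgeR called 40 lincRNAs (55.6%), beside 68.5% of all listed genes. Without EV replicate 1 it called 13 (18.1%), of which 10 were among the authors' 12, beside 27.4% of all listed genes. In both of these fits, as in the authors' table, the share among lincRNAs was below that of the listed genes, a difference that was not tested.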

How the data were processed

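RNA of AMO1 cells was extracted with a column kit and sequenced from SMARTER mRNA-Seq libraries, per the labels' protocols. Per the submitters' processing notes, hg38 was the build; the aligner, the counter, strand use and the authors' test are not stated there or in the labels. The deposited table holds raw read counts, FPKM (scaled to gene length and library total, per the file headers), a normalized signal, and the authors' log2 fold change, p-value and adjusted p-value. The deposited normalized values equal the count divided by 1.26 and 1.02 (EV replicates 1 and 2) and 0.832 and 0.977 (PHF19_OE). The highest deposited p-value is 0.0499. Benjamini-Hochberg adjustment over 16881 genes returned 1208 deposited adjusted values within 1e-06; 24 others, 5 of them lincRNAs, have an adjusted p of 1.

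The authors' adjusted p under 0.05 was the call. For a group at 0 counts, folds are lower bounds computed with 3 counts in place of its sum; for a group with 1 to 3 counts, an exact 95% interval accompanies the ratio. The interval covers counting error only. The lower bound allows for counting error in the group at 0 alone and takes the mean of the other group as exact. Counts were refitted with edgeR 4.0.16 (quasi-likelihood, Benjamini-Hochberg adjustment) and DESeq2 1.42.0 in R 4.3.3. Simulated data of 1232 genes were used to check edgeR alone, and DESeq2 was not checked in this way. The simulation held only that number of genes, so it does not test the adjustment over all genes used in the refits. The labels do not call the replicates separate cultures; p-values then reflect the spread between these 4 samples alone, and that spread may be technical. An overexpressed transgene and the endogenous PHF19 gene are not separated by the counts.

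Members and gene lists were chosen with earlier results of these data known. Named by rule (42 lincRNAs) are those past 0.05, those on a list of 58 names, the 5 with the highest counts, those at 0 in a group with a mean normalized count of at least 10 in the other, those with a listed coding gene within 100 kb, and the 3 with the widest EV pair. The motif and microRNA searches and all other lincRNAs named were chosen after values were seen. Alternatives tried were other scalings, tests, adjustments, thresholds, filters, windows, pseudocounts and each library left out. Python 3.11.15 was used for the rest.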

Additional observations from a re-analysis of the deposited data

How the results depend on the processing

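The number of lincRNAs past an adjusted p of 0.05, 12 in the authors' table, was 16 at a threshold of 0.1 and 9 at 0.01 (29.5% and 15% of all listed genes). Refits of the listed counts moved it. EdgeR called 0 with the authors' size factors, 0 with TMM factors and 0 with low counts filtered, which left 47 of the 72, and 1 when adjusted over the listed genes alone (0%, 0%, 0% and 4.46% of the listed genes fitted). DESeq2 called 4 with the authors' size factors, 4 with its own and 16 (22.2%) when adjusted over the listed genes alone (10.9%, 13.1% and 29.5% of the listed genes). Leaving out each library in turn, edgeR called between 0 and 40. It called 40 without EV replicate 2, 13 without EV replicate 1, and 0 without PHF19_OE replicate 1 or 2, beside 68.5%, 27.4%, 0.893% and 0.812% of the listed genes. In these fits the lone library of a group is assumed to vary like the other group. The cause was not tested. With the replicate number as a block, edgeR called 3 (4.17%), all among the 12, beside 8.93% of the listed genes; the labels share only a number across groups, and the deviations of same-numbered libraries correlated with r = 0.208 over 1232 listed genes and 0.123 over the 72, a description.

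The split of 46 lower and 26 higher lincRNAs was the same under TMM, DESeq2 and total-count scaling, although the median of all listed genes moved by 0.89, 1.02 and -0.02 (log2). The counts at 0 in a group (11 and 16) became 16 and 19 with up to 3 reads allowed. Within 50 kb 6 of 7 neighbour pairs went the same way, and within 250 kb 14 of 17. Of the fold changes of the 42 named lincRNAs, AC007405.3 and LINC01634 changed sign without EV replicate 1, LINC00559 and AC098936.1 came level at 0, and none changed sign under the pseudocounts of 0.5, 1 and 5, without any other library or with the block. Depth limits most of these transcripts, 37 of which had fewer than 100 reads in all.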
